A study of Mus musculus with 8 samples.

Results

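Small annotated non-coding loci were examined in macrophages derived in culture from the bone marrow of C57BL/6 mice. The loci were those of the authors' merged annotation that held a transcript matching a reference transcript exactly, carried no protein identifier and covered fewer than 200 exonic nucleotides (nt) once exons were merged. There were 3964 such loci among 31020 in all, which is 12.8%. They stood beside 19989 protein-coding loci, and 7308 loci of any length were annotated and non-coding. The comparison was of 4 untreated libraries with 4 libraries from macrophages given interleukin-4 (IL-4), a signalling protein of allergic and anti-parasite responses. The IL-4 dose and duration are not stated in the labels used here. The series describes the samples of a group as biological replicates, without saying whether each came from its own animal. A p-value here therefore reflects only the spread between these samples, part of which may be technical. The libraries numbered 4 of both groups differed from the others in chromosome Y reads, as given below.

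Short annotated RNAs of the mouse include microRNA hairpins, from which short guides that silence messenger RNAs are cut, and small nucleolar and spliceosomal RNAs, which guide the modification of other RNAs or take part in splicing. Many small nucleolar RNAs and microRNA hairpins lie inside introns of longer genes and are released from the host's transcript. Another class, the PIWI-interacting RNAs, is known from germ cells, where large numbers of them come from long genomic clusters. The libraries here were made by a TruSeq procedure from total RNA, after DNase digestion, removal of ribosomal RNA and fragmentation. A read assigned to a small locus could therefore come from the small RNA itself, from a longer precursor or from an unspliced host transcript, and these cannot be told apart. Whether the counting used strand is not stated in the labels or notes used here, so reads from the opposite strand cannot be separated either.

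The files used here identify loci by number and position on the mm9 build and pair none of them with a gene symbol. The members are therefore given by locus number and coordinates, the class of RNA is not assigned, and the macrophage identity of the samples was not checked against marker genes. Libraries held 23071022 to 27783417 counts. For a locus with 0 counts throughout a group, up to 3 counts remain possible, which is 0.0305 CPM (counts scaled to a total of 1e+06) in the untreated group and 0.0287 CPM in the IL-4 group; this limit covers counting error only. Both libraries numbered 4 stood apart from the others by their reads on chromosome Y, with 5808 and 5525 counts against 0 to 7 in the other 6. Counts of changed loci are given with and without this pair.

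Each of the 3964 loci held 1 transcript, taken over from the reference and not assembled from these reads. Their length ran from 22 to 198 nt with a median of 37 nt, the commonest length was 30 nt (447 loci), and 28 loci had several exons. Across all 8 libraries 365 loci (9.21%) received at least 1 count and 3599 received 0. Enough counts for a test were reached by 36 loci, or 0.908%. The measured part of the set was therefore small, and every statement on change with IL-4 below is about these 36 loci unless said otherwise. At the upper limit of length, the members of 194, 195 and 198 nt had 0, 0 and 123 counts, and the annotated non-coding loci just above it, of 200, 201 and 204 nt, had 0, 9 and 0.

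Length went along with whether a locus was read. Counts were present at 5 of 30 loci of 22 to 25 nt (16.7%), at 3.92% of the 1862 loci of 26 to 36 nt and at 4.01% of the 774 loci of 37 to 50 nt. The percentage was 11.7% at 51 to 70 nt, 23.9% at 71 to 100 nt, 30.3% at 101 to 130 nt and 37.0% at 131 to 199 nt. Longer loci also offer more positions for a read to align to. Above 50 nt no steady rise was seen among the 203 members inside introns of same-strand coding loci above 1 CPM. Counts were present at 81.6% of 38, 73.2% of 97, 78.8% of 33 and 4 of 5 in the same order. In the shorter classes the figures were 1 of 3, 6 of 24 and 1 of 3. Over all members, length was not separated from place or host level, and their shares in the trend were not tested. The FPKM values the authors deposited, which are fragments scaled to transcript length and to the mapped fragments, showed a limit of their own. None of the 3953 transcripts of any kind shorter than 103 nt had an FPKM above 0 in any library, and 304 of the 3774 small loci below that length did have counts. An FPKM of 0 at these lengths therefore does not show absence of RNA. The shortest member with an FPKM above 0 had 105 nt.

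**Figure D1:**
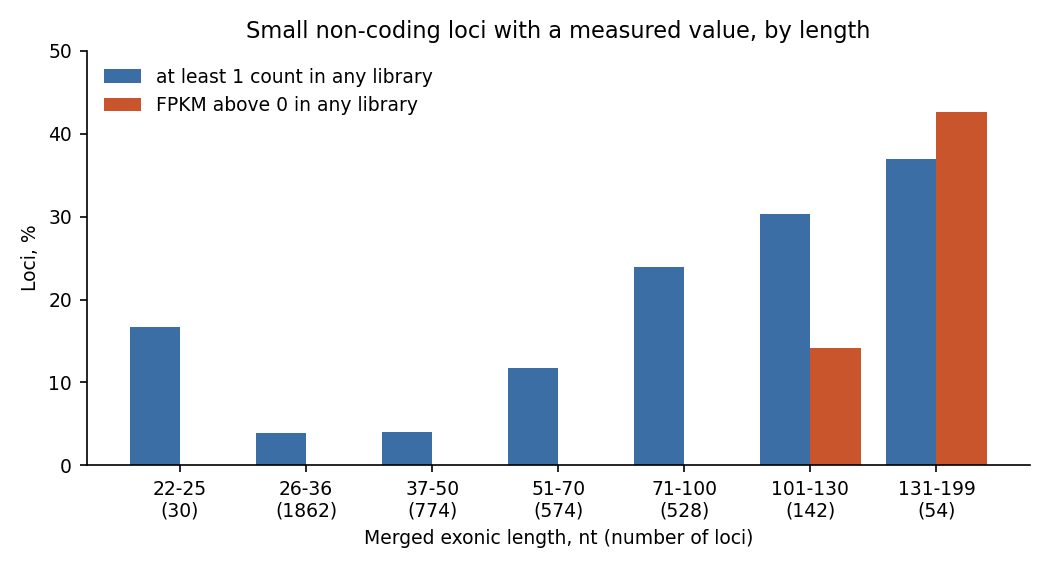
Percentage of small non-coding loci with a measured value (vertical axis) by merged exonic length in nt (horizontal axis, number of loci in brackets), for counts (blue) and FPKM (orange). Loci of 26 to 50 nt were read least often, near 4%, and FPKM above 0 appeared only in the classes from 101 nt on.

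Reads on small loci were concentrated on very few of them. Of 198891 counts summed over all members and libraries, 65.24% lay on XLOC_006678, and 85.81% on this locus and XLOC_022572 together. Adding XLOC_025327 brought the share to 91.41%. The 329 loci with counts that were too few to test held 3240 counts in all, between 1 and 78 each, with a median of 3.

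Most members lay in dense groups along the genome, and these were almost unread. When loci no more than 10000 nt apart were joined, 67 clusters of at least 10 members held 3189 loci, or 80.4%. In these clusters 122 loci (3.83%) had counts, 276 counts in total, and 47 clusters had none. Outside the clusters 243 of 775 loci (31.4%) had counts. The largest cluster, chr17:27431702-27500633, held 238 loci on both strands with a median length of 34 nt and 0 counts in all 8 libraries. The next largest, chr2:92381532-92447569, held 190 loci on the plus strand, of which 23 had counts. Its summed counts were 3, 5, 2 and 11 in the untreated libraries and 2, 0, 2 and 2 in the IL-4 libraries. These sums touched at 2 counts, and 11 of the 21 untreated counts came from a single library, the one numbered 4. Another cluster with reads, chr10:75300733-75324909, had 53 loci and counts of 3, 10, 3 and 6 in untreated against 3, 2, 1 and 2 in IL-4 libraries, again too few for a test. The cluster with the most counts, chr10:82838129-82848067, had 12 of 13 loci read. Its sums overlapped, at 13, 15, 12 and 6 untreated and 8, 6, 11 and 7 with IL-4. Other clusters had more counts with IL-4, such as chr15:59085454-59119629 with 2 untreated and 6 with IL-4.

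Whether a locus was read also went with its place relative to coding genes. Of the members, 394 lay inside an intron of a protein-coding locus on the same strand, and 153 of these (38.8%) had counts. Another 111 lay in such an intron on the opposite strand, with counts at 26 (23.4%). Inside an intron of a longer non-coding locus there were 297 members, 23 with counts (7.74%). The 3036 members outside any of these had counts at 161 loci (5.30%). Of the 92 members that touched an exon of a coding locus, 2 had counts, and 34 that overlapped other loci in another way had 0. In all, 141 members shared exonic positions with another locus, where a read may not be assigned to either, and 3 of these had counts.

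Among intronic members, being read went with the level of the host. On the same strand, 7 of 177 members (3.95%) had counts where the host's mean was at most 0.1 CPM. A single host, XLOC_028925, held 101 of these with 0 counts, and without it the figure was 7 of 76 (9.21%). It was 6 of 14 (42.9%) in hosts of 0.1 to 1 CPM, 35 of 78 (44.9%) in hosts of 1 to 10 CPM, 59 of 77 (76.6%) in hosts of 10 to 100 CPM and 46 of 48 (95.8%) above 100 CPM. In hosts of 1 to 10 CPM the figure without XLOC_014291, described below, was 13 of 39 (33.3%). On the strand opposite to the host, counts were present at 3 of 42 members (7.14%) in hosts of at most 0.1 CPM and at 1 of 17 (5.88%) at 0.1 to 1 CPM. The figures were 3 of 19 (15.8%) at 1 to 10 CPM, 14 of 27 (51.9%) at 10 to 100 CPM and 5 of 6 (83.3%) above. Leaving out the host with most members in each range gave 3 of 15, 1 of 3, 3 of 9, 13 of 19 and 3 of 4 in the same order. Members within 1 host are not independent, since they share its transcription, and these percentages carry no test.

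**Figure D2:**
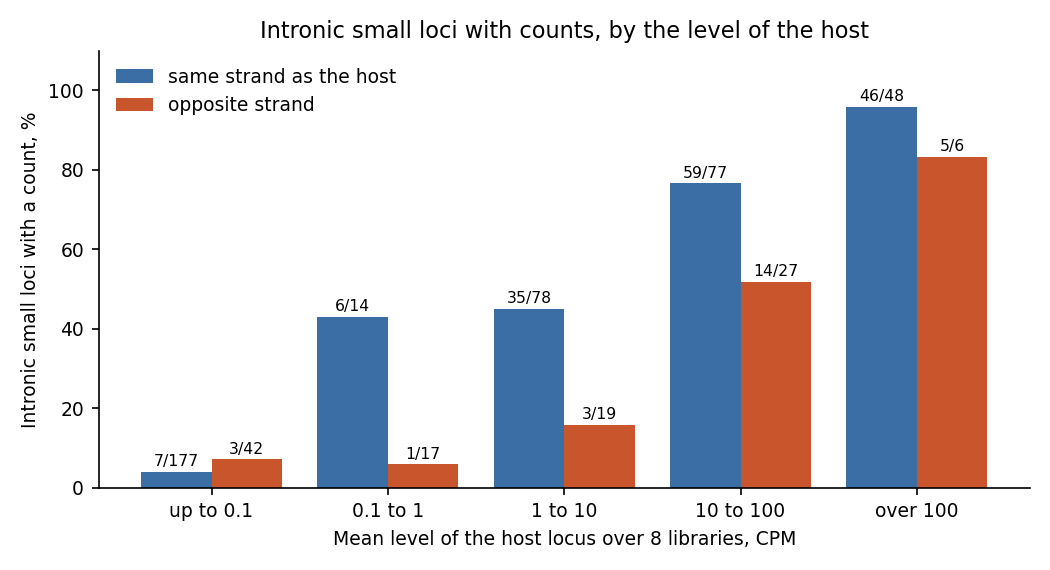
Percentage of intronic small loci with at least 1 count (vertical axis) by the mean level of the host locus in CPM over the 8 libraries (horizontal axis), for loci on the host's strand (blue) and on the opposite strand (orange), with the numbers of loci above the bars. The percentage was 3.95% in the lowest and 95.8% in the highest range on the host's strand, and was highest above 100 CPM on both strands.

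Read density on the intronic members was mostly below that on the host's exons. In hosts above 1 CPM, the 140 same-strand members with counts had a median density per nt of 0.133 times that of the host's exons, with quartiles of 0.035 and 0.394. Without the members of XLOC_014291 the median was 0.0822. Of the 140, 13 exceeded the exons of their host. The highest ratio, 5.64, belonged to XLOC_002889 (chr10:95021865-95021955, 91 nt), on 18 counts in all. The 63 members without counts in such hosts lay in longer introns, with a median of 62472 nt against 7030.5 nt for those with counts. Without the members of XLOC_014291 the medians were 143168 nt (46 members) and 3656 nt (118 members). The unread members were also shorter themselves, with a median length of 79 nt against 86 nt. Without the members of XLOC_014291 these lengths were 57.5 nt against 84.5 nt, so intron length and locus length were not separated.

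XLOC_014291 (chr2:10292078-10516880, 26 exons) carried a cluster of 39 small loci with a median length of 97 nt, all within a single intron of 62472 nt. The host itself was at 1.61, 1.46, 1.30 and 1.002 CPM in the untreated libraries and 3.87, 3.82, 4.63 and 4.21 CPM in the IL-4 libraries. All IL-4 values were above all untreated ones, and the host rose by 1.72 on the log2 scale (SE 0.164, edgeR quasi-likelihood test with Benjamini-Hochberg adjustment, adjusted p = 6.681e-06). In the cluster 22 loci had counts, and their sums were 9, 8, 4 and 3 in untreated and 7, 17, 6 and 19 in IL-4 libraries. The cluster's sum was 24 counts untreated and 49 with IL-4, and the libraries of the groups overlapped. The cluster also held 3 of the members read only in IL-4 libraries that had the most counts, XLOC_014303 with 6 counts and XLOC_014292 and XLOC_014319 with 4 each.

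Counts of same-strand intronic members were next summed by the change of their host, for description and with no test. In the 10 hosts that rose at least 2-fold with IL-4, 35 same-strand members had counts, with sums of 38, 43, 30 and 21 in untreated and 48, 93, 65 and 66 in IL-4 libraries. The IL-4 sums all lay above the untreated ones, and the ratio of CPM was 1.94. Without XLOC_028363, the member with the most counts, and without the members of XLOC_014291, 12 members in 8 hosts remained, with a ratio of 2.67. Among these 12, XLOC_013582 had the most counts, with 2 of 25 untreated and 27 of 71 with IL-4. The ratio without this locus was not computed. In the 18 hosts that fell by less than 2-fold, whose median change was -0.49 on the log2 scale, 19 members had sums of 112, 108, 121 and 118 counts untreated and 62, 73, 54 and 83 with IL-4. The groups did not overlap in CPM, the ratio was 0.558, and 2 of the 19 members were higher with IL-4. The ratio was 0.556 without XLOC_019447, the member with the most counts there.

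In the 22 hosts that rose by less than 2-fold, the 29 members summed to a ratio of 0.931, 14 of them were higher with IL-4, and the groups overlapped. In the 53 hosts for which no change was called, 58 members gave 0.856, also with overlap. In the 4 hosts that fell at least 2-fold, the 4 members had 11 counts untreated and 7 with IL-4. On the opposite strand, the 7 members in hosts that rose by less than 2-fold gave a ratio of 2.07, or 0.968 without XLOC_027455, and the 5 in hosts that fell by less than 2-fold gave 0.753, on 25 and 20 counts. All these ratios are on library totals, on which the median tested locus differed by -0.13 on the log2 scale between the groups. The scaled fits used below removed most of this shift, leaving a median of -0.022.

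Change with IL-4 was next tested locus by locus. Of the 36 members tested by edgeR, 3 rose and 3 fell at an adjusted p under 0.05, or 16.7%, and 8 had an unadjusted p under that value. Over all 13761 tested loci 25.6% rose and 26.2% fell, 51.8% in either direction. The tested members were weakly counted: 29 of 36 had fewer than 50 counts per library, and 3 of these (10.3%) were called, against 43.0% of all loci in that range. The median log2 fold change of the 36 members was -0.107, and their median absolute change was 0.318, beside 0.324 for all tested loci. Standard errors on the log2 scale ran from 0.0628 to 0.587, with a median of 0.29 for those under 50 counts, so that small changes were not detectable in most members. Without both libraries numbered 4, 3 of 38 tested members rose and 2 fell, beside 45.6% of all 13944 loci in that fit. CPM of the groups did not overlap for 6 of the 36 members, 3 higher and 3 lower with IL-4, against 50.2% of all tested loci. These CPM are on library totals. On library totals scaled by TMM or RLE factors, 5 members did not overlap. The share of all tested loci was not computed at these scalings, so this number has no background beside it.

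**Figure D3:**
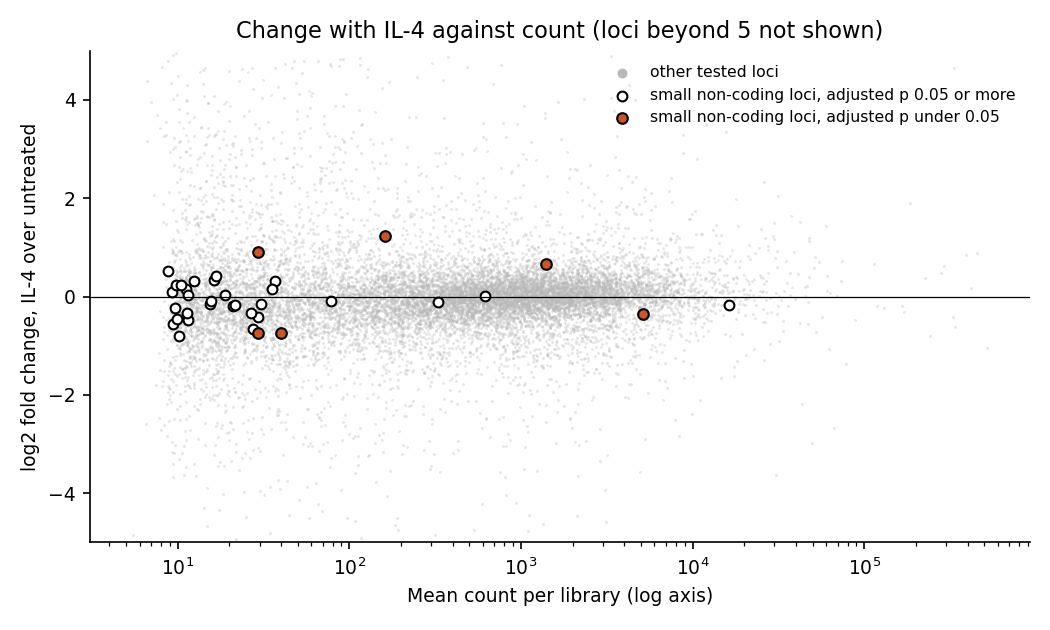
Log2 fold change of IL-4 over untreated (vertical axis) against mean count per library (horizontal axis, log scale) for all tested loci (grey) and the 36 tested small loci (open circles, or orange where the edgeR adjusted p was under 0.05). Most small loci sit at low counts, and the 6 called ones lie between -0.74 and 1.23.

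The largest rise among the called members was that of XLOC_027455, a locus of 95 nt on the minus strand at chr8:85694581-85694675. Its counts were 103, 102, 91 and 92 in the untreated libraries and 221, 259, 207 and 210 in the IL-4 libraries. The IL-4 values were all more than the untreated ones, and the CPM rose from 3.94 ± 0.152 to 8.57 ± 0.638 (SD, n = 4 each). The fitted change was 2.34-fold, or 1.23 on the log2 scale (SE 0.0985, edgeR adjusted p = 1.831e-06). The locus lay in an intron of 44216 nt, 39644 nt from the next exon downstream, of XLOC_026790, which is on the plus strand. That host changed by 0.28 on the log2 scale (adjusted p = 0.02218). The ratio of the small locus to its host rose by 0.95 (95% interval 0.704 to 1.189, limma adjusted p = 5.753e-05 over 305 nested pairs of both strands, of which 30.8% differed). Per nt, it was read 8.37 times as densely as the host's exons. Among the called members it alone kept its call when the test asked for a change beyond 1.5-fold.

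XLOC_025327, 177 nt at chr7:28255186-28255362 and outside any coding locus, ranked after only XLOC_006678 and XLOC_022572 in abundance. It had 1057, 1250, 1063 and 971 counts untreated and 1674, 1925, 1556 and 1651 with IL-4. The groups did not overlap, and the CPM rose from 44.0 ± 2.97 to 65.0 ± 3.37 (SD, n = 4 each), a change of 0.67 on the log2 scale (SE 0.0628, edgeR adjusted p = 5.951e-06). Its nearest coding locus, XLOC_024065, lies 1345 nt away on the other strand and changed by 0.06 (adjusted p = 0.6882). FPKM gave the same direction for XLOC_025327, with 61.5, 76.7, 71.8 and 52.6 untreated and 133.5, 121.3, 118.2 and 105.3 with IL-4. The FPKM change was 0.87 on the log2(FPKM + 0.1) scale (SE 0.124, limma adjusted p = 0.000671). It was the only member called in both measures.

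XLOC_028363, 88 nt at chr9:69304751-69304838, lies in an intron of XLOC_028362 on the same strand. Its counts were 22, 28, 19 and 14 untreated and 30, 45, 43 and 34 with IL-4, without overlap. It rose by 0.90 on the log2 scale (SE 0.227, edgeR adjusted p = 0.006433). The host rose too, from 1233 ± 53.0 to 2509 ± 75.2 CPM (SD, n = 4 each), by 1.13 (SE 0.0617, adjusted p = 1.026e-07). The ratio of member to host changed by -0.23, with a 95% interval from -0.752 to 0.286, so a difference between the pair was not detectable at this depth.

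Of the members that fell, XLOC_022572 was the most abundant. It spans 74 nt at chr6:122407229-122407302, in an intron of XLOC_023371 on the opposite strand. Counts were 6401, 5978, 5243 and 5490 untreated and 4427, 4719, 4394 and 4249 with IL-4. The groups did not overlap, and the locus fell from 235 ± 15.8 to 170 ± 10.7 CPM (SD, n = 4 each), with a fitted change of -0.36 on the log2 scale (SE 0.0717, edgeR adjusted p = 0.001582). The host had almost no exonic reads, with 0 CPM untreated and a mean of 0.0104 CPM with IL-4, so no comparison with it was possible.

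XLOC_019447, 177 nt at chr4:69910257-69910433, had 55, 44, 49 and 52 counts untreated and 24, 34, 22 and 39 with IL-4, without overlap. It fell by 0.74 on the log2 scale (SE 0.201, edgeR adjusted p = 0.009778). Its host on the same strand, XLOC_019446, fell by 0.21 (SE 0.0625, adjusted p = 0.01474). The ratio of the pair changed by -0.54 (95% interval -0.991 to -0.097), which did not pass adjustment over all nested pairs (limma adjusted p = 0.06539) and did without IL-4 replicate 4 (adjusted p = 0.03308). The FPKM of this locus changed by -0.04 (limma adjusted p = 0.7395) and matched those of XLOC_006842, also of 177 nt, on chromosome 13, within 2% in every library. The counts of the pair were 319 and 54 in all, so how reads were divided between these loci is uncertain.

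XLOC_013255, 62 nt at chr18:74938048-74938109, had 26, 42, 37 and 43 counts untreated and 30, 24, 15 and 19 with IL-4. Here the groups overlapped, since the highest IL-4 count exceeded the lowest untreated one. The locus fell by 0.73 on the log2 scale (SE 0.239, edgeR adjusted p = 0.02409), and this call depended on single libraries. It was lost on leaving out replicate 2, 3 or 4 of either group (adjusted p from 0.05052 to 0.07833) and without both libraries numbered 4 (adjusted p = 0.1363).

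The most abundant member, XLOC_006678, spans 96 nt at chr13:75782494-75782589, outside coding loci. It had 18842, 18563, 14902 and 17017 counts untreated and 15491, 15930, 13408 and 15607 with IL-4. On library totals the groups did not overlap, with 760, 696, 646 and 710 CPM against 600, 573, 559 and 577 CPM. On totals scaled by TMM or RLE factors the groups overlapped at this locus. The fitted change, relative to the scaled libraries, was -0.18 on the log2 scale (SE 0.0715, edgeR adjusted p = 0.05581), just above the threshold. With the replicate number as a block the adjusted p was 0.03365, and without untreated replicate 3 it was 0.01825.

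Of the other 5 members among the 10 most abundant, none passed the test. XLOC_004128 had 25.2 ± 0.922 CPM untreated and 23.5 ± 1.33 with IL-4 (SD, n = 4 each), with a fitted change of 0.01 and an SE of 0.0688, the most precise of these. XLOC_021325 stood at 19.8, 11.1, 12.5 and 12.3 CPM untreated and 12.3, 11.8, 12.8 and 11.0 with IL-4; the first untreated library was above all the rest. XLOC_011796, XLOC_020356 and XLOC_023336 had mean CPM between 1.35 and 3.28 in the untreated group and fitted changes of -0.09, 0.33 and 0.15.

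**Figure D4:**
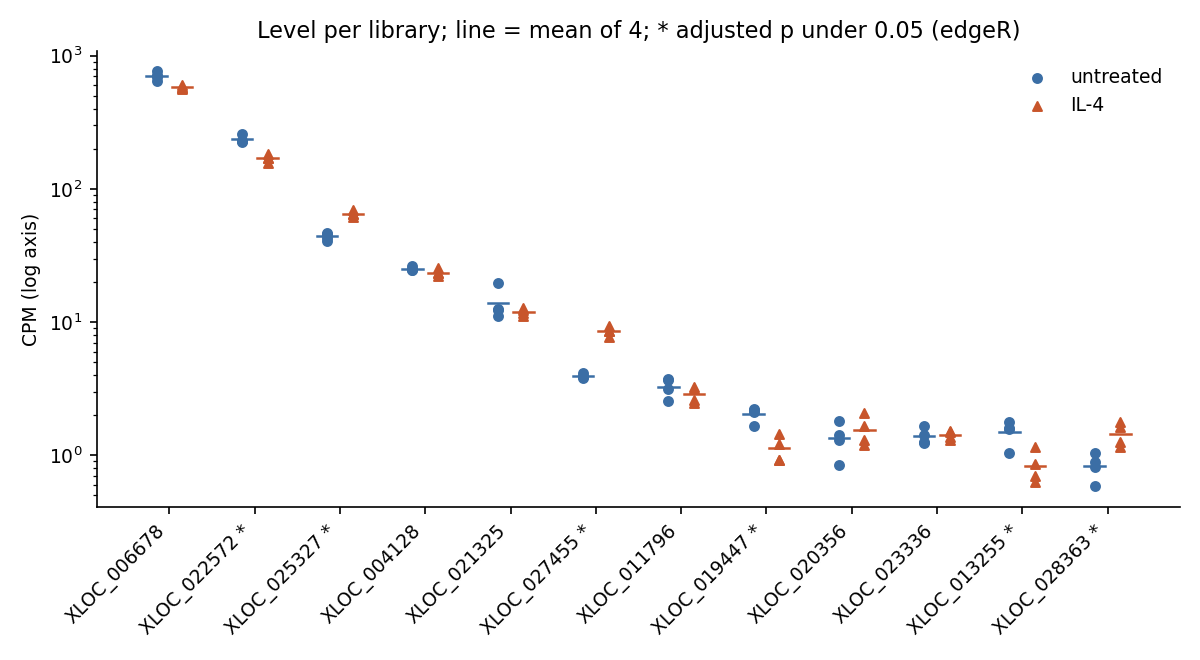
CPM in each library (vertical axis, log scale) of the 10 most abundant small loci and the further called ones, untreated (blue circles) and IL-4 (orange triangles), with lines at the mean of 4; an asterisk marks an edgeR adjusted p under 0.05. XLOC_027455 and XLOC_025327 were higher in every IL-4 library, and XLOC_022572 was lower in every one.

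Small loci together took 0.115%, 0.106%, 0.101% and 0.106% of the counts in the untreated libraries and 0.0916%, 0.0898%, 0.0889% and 0.0873% in the IL-4 libraries. The share was lower in every IL-4 library, at 0.107 ± 0.00584% against 0.0894 ± 0.00178% (SD, n = 4 each). It was set by the leading loci. Without XLOC_006678 and XLOC_022572 the direction turned, from 0.0131 ± 0.000613% untreated to 0.0146 ± 0.000641% with IL-4, again without overlap. Without XLOC_025327 as well it turned back, from 0.00871 ± 0.000351% to 0.00812 ± 0.000308%, and the groups overlapped.

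Where both a same-strand intronic member and its host had enough counts, the change in their ratio was tested directly. There were 21 such pairs. In none of them did the ratio change at an adjusted p under 0.05 (limma on the log2 ratio), 3 had an unadjusted p under that value, and an edgeR interaction fit also called 0. Of all 155 nested pairs of any class, 29.7% differed. The 95% intervals of the members' ratios were between 0.809 and 3.8 wide on the log2 scale with a median of 1.42, so that modest differences from the host were not detectable. Of the 21 hosts 5 rose and 1 fell. Among the 5 rising hosts only, the ratio of the member moved furthest in 2, downward in both. XLOC_024793 rose by 0.27 (edgeR adjusted p = 0.02954), while its member XLOC_024794 had a change of -0.41. Their ratio changed by -0.71 with a 95% interval from -1.331 to -0.093 (limma adjusted p = 0.07967). XLOC_002368 rose by 0.79 (edgeR adjusted p = 1.465e-05), its member XLOC_002369 had a change of 0.10, and their ratio one of -0.78 with a 95% interval from -1.715 to 0.153. The largest change of the 21 ratios, -0.95, was in a host with no call, XLOC_000975 (change 0.04, edgeR adjusted p = 0.8414). Its member was XLOC_000976, and the 95% interval ran from -1.817 to -0.076 (limma adjusted p = 0.09602). All these pairs were picked on the values themselves. The median change of the ratio was -0.088 for the 21 members and -0.098 for all pairs. Without both libraries numbered 4, the ratio differed in 0 of 22 member pairs, beside 25.8% of 155 nested pairs.

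**Figure D5:**
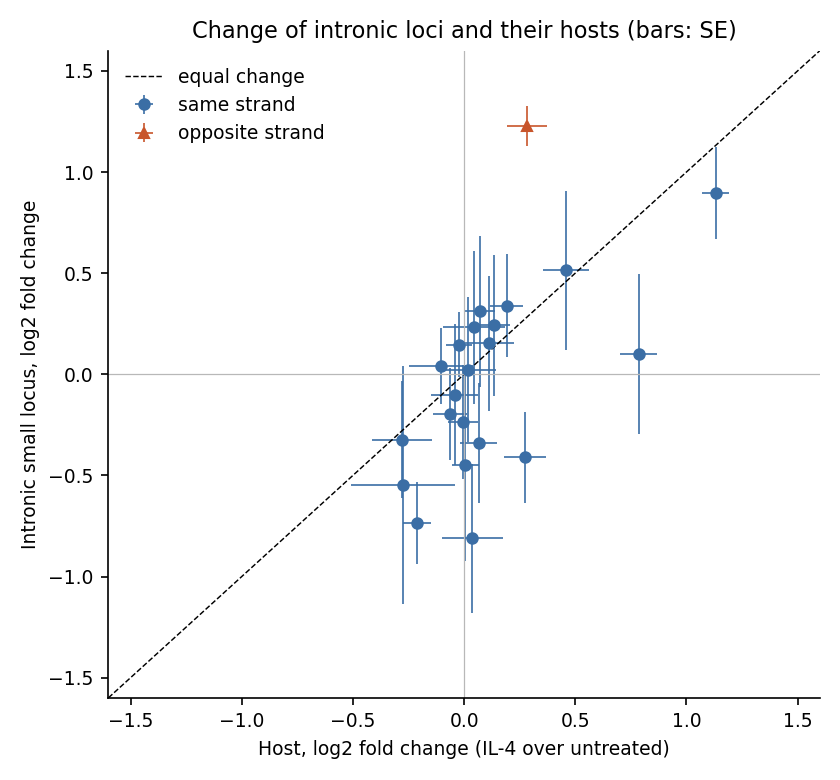
Log2 fold change of intronic small loci (vertical axis) against that of their host (horizontal axis), with standard errors as bars, for 21 pairs on the same strand (blue) and 1 on opposite strands (orange); the dashed line marks equal change. XLOC_028363 rose with its host near the line, and XLOC_027455, on the opposite strand, lies above it.

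When no minimum count was asked, 10 of the 365 members with counts (2.74%) were called by edgeR, 4 rising and 6 falling, beside 36.9% of the 21080 loci in that fit. The 4 further loci were named after their values were seen. Counting intervals given for them rest on group totals and leave out the spread between libraries. XLOC_013582 (121 nt, chr19:23223921-23224041) had 0, 0, 1 and 1 counts untreated and 2, 14, 7 and 4 with IL-4, a ratio of CPM of 12.7 with a 95% counting interval from 3.19 to 110. Its host on the same strand, XLOC_013581, rose by 3.74 on the log2 scale (edgeR adjusted p = 3.544e-07), from 7.95 ± 2.69 to 98.7 ± 23.2 CPM (SD, n = 4 each). The fitted rise of the small locus was 3.48 (edgeR without a filter, adjusted p = 0.004664).

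XLOC_011368 has 3 exons that sum to 172 nt within chr17:35534275-35534745, inside an intron of XLOC_011362. Counts were 9, 11, 17 and 10 untreated and 2, 1, 3 and 2 with IL-4, without overlap, a ratio of CPM of 0.160 (95% counting interval 0.0654 to 0.342). The fitted change was -2.45 on the log2 scale (edgeR without a filter, adjusted p = 0.000628), while the host changed by -0.14 (adjusted p = 0.0406). It missed the minimum count with all 8 libraries, so its ratio to the host was not tested among the 21 pairs. On leaving out 1 library it reached the minimum only through the untreated group, where it was high, and those fits are no support for a difference. Its FPKM were 2.80, 7.34, 0.937 and 1.29 untreated and listed at 0 in 3 IL-4 libraries, with 1.15 in the other.

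The remaining calls of that fit were on very short loci. XLOC_017590 (25 nt) had 5, 4, 11 and 4 counts untreated and 1, 1, 1 and 2 with IL-4. Its host XLOC_017589 changed by 0.12 (edgeR adjusted p = 0.1665). XLOC_002094 (27 nt) had 2, 3, 1 and 3 counts against 0, 1, 0 and 0, a ratio of 0.105 with a 95% counting interval from 0.00239 to 0.755. It lies in the cluster at chr10:82838129-82848067, whose summed counts overlapped between the groups. Loci read in a single group were about as many on each side, 78 in untreated and 76 in IL-4 libraries, and had at most 6 counts. Those with the most counts were XLOC_014303 (6) and XLOC_022752 (5) with IL-4 and XLOC_004316 (5) and XLOC_026733 (5) untreated, and the next were tied at 4.

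FPKM gave values for 43 members, 28 of which had counts as well and 15 of which had none. Of 29 member transcripts with enough signal for limma, 2 rose and 2 fell (13.8%), against 38.4% of 17500 transcripts. For 9 of the 29 at least 1 library was listed at 0. Of 11 members tested in both measures, 8 changed in the same direction. Besides XLOC_025327, the riser was XLOC_012888, 133 nt at chr18:6760078-6760210. It had 251, 291, 249 and 203 FPKM untreated and 466, 432, 353 and 400 with IL-4, without overlap, a change of 0.74 (SE 0.122, limma adjusted p = 0.001612). The counts hold only 2 reads for this locus.

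The fallers in FPKM were XLOC_011368 and XLOC_009186. XLOC_009186, 150 nt at chr15:82980075-82980224 and 308 nt from the coding locus XLOC_009747, had 92.6, 116.6, 91.0 and 75.7 FPKM untreated and 79.3, 60.1, 39.9 and 42.1 with IL-4. The groups overlapped in 1 library of each. It fell by 0.80 in FPKM (SE 0.226, limma adjusted p = 0.02194), and in counts its change was -0.66 (edgeR adjusted p = 0.08068, or 0.03656 with the replicate number as a block). Both calls in FPKM depended on single libraries. Without both libraries numbered 4, 3 of 23 tested members rose in FPKM and 0 fell, beside 28.4% of 15873 transcripts called.

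The highest FPKM did not belong to the most counted loci. XLOC_014556, 117 nt at chr2:40412838-40412954, was listed at 5966 to 10720 FPKM, with 12 counts in all 8 libraries and 0.508 CPM per kilobase. XLOC_021325 followed at 1251 to 5105 FPKM, on 2617 counts and 118.7 CPM per kilobase. XLOC_007701, of 122 nt in 3 exons, had 193 to 532 FPKM and 0 counts; XLOC_007697, of the same length and exon number and also on chromosome 14, had 67.2 to 384 FPKM and 0 counts. With the replicate number as a block, XLOC_007701 rose by 0.63 in FPKM (limma adjusted p = 0.03263), and without the block its adjusted p was 0.1362. XLOC_023336 completed the 5 highest, at 152 to 351 FPKM. For loci this short the levels in FPKM and in counts per length thus differed widely, and which of them follows the RNA was not tested.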

How the data were processed

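RNA was measured in 8 libraries. Per the submitters' processing notes, CASAVA 1.8.2, TopHat2 2.0.9, Cufflinks 2.1.1, HTSeq and mm9 were used; their settings are not given in the sources used here. Deposited were whole-number counts per merged locus and FPKM per transcript, and 0 value columns went unmatched. Members and lists were chosen with earlier results of these data known. Counts were fitted over all loci with edgeR 4.0.16 (R 4.3.3; TMM, filterByExpr, quasi-likelihood test), FPKM with limma 3.58.1 on log2(FPKM + 0.1) for transcripts of at least 1 FPKM in 4 libraries, and member-to-host ratios with limma on counts plus 0.5. Adjusted p under 0.05 over all features was called. Alternatives were DESeq2 1.42.0, other scaling, filters, pseudocounts and libraries left out. Deviations from the group mean correlated between same-numbered samples at 0.39, 0.149, 0.228 and 0.179, all above 0.1. Differently numbered samples also exceeded 0.1, with 0.261 for untreated 3 and IL-4 2. The others above it were untreated 2 with IL-4 3 (0.133) and untreated 1 with IL-4 4 (0.123). These values therefore do not settle whether the numbers pair the samples. The main fits were unpaired, with the replicate number as a block in an alternative. The models were also run on simulated data. For counts, that simulation gave all loci the same dispersion, so performance on the weakly counted members was not tested. Named were all called members, the 10 most abundant, the 5 with the largest counts in 1 group only and the 5 with the highest FPKM; others are said to be chosen later. Sequences were not used here.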

Additional observations from a re-analysis of the deposited data

Results flagged for a closer look

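In 4 of 42 groups of 4 libraries, 1 library lay far from the other 3, with a gap to its nearest neighbour beyond the 95% critical value of Dixon's test. Chance gives about 1 in 20 groups. For XLOC_022572, untreated replicate 1 was high at 258.1 CPM. For XLOC_021325, the same library was high at 19.76 CPM. For XLOC_019447, untreated replicate 2 was low at 1.649 CPM. The FPKM of XLOC_011368 was 1.149 in IL-4 replicate 3 and listed at 0 in the other 3 IL-4 libraries. With 3 values at 0, any value above 0 in the other library is flagged. The rate of 1 in 20 therefore does not apply to this group.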

How the results depend on the processing

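Counts of called members moved as follows. A test beyond 1.5-fold called 1 riser and 0 fallers (17.9% of all loci), no minimum count gave 6 fallers (36.9%), and the fit with the replicate block gave 5 (57.9%), adding XLOC_006678 and XLOC_009186. Leaving out each library gave 2 to 5 fallers, beside 46.8 to 54.5% of all loci called in either direction. XLOC_011368 entered on leaving out any 1 of the 4 IL-4 libraries or untreated replicate 1, reaching the minimum through the untreated group alone. In FPKM, 2 to 4 members rose and 0 to 2 fell on leaving out each library, beside 31.6 to 38.9% of all transcripts called. At a minimum of 5 FPKM 1 fell (51.3% of all transcripts called), 0 without a minimum (11.6%), and 0 without both libraries numbered 4 (28.4%). That alternative was chosen after seeing the data, as were leaving out the 2 or 3 most abundant members and leaving out single hosts. Between member and host, 1 ratio differed with both strands (30.8% of all nested pairs) and 0 to 2 on leaving out each library (23.3 to 31.5%). A minimum of 50 counts left no member pair. Members without overlap numbered 10 of 36 without both libraries numbered 4, beside 58.1% of all tested loci. The difference in share of counts, -0.0175 percentage points, became -0.00491 without XLOC_006678, 0.00151 without the 2 most abundant members, -0.000589 without the 3 most abundant and -0.0103 on scaled totals. Of 293 alternative values for 20 named results, 257 kept their direction and call, 18 lost and 6 gained the call, and 12 changed sign, all in 3 loci with no call. On leaving out each library, the log2 change in counts ran from -0.019 to 0.051 for XLOC_004128 and from -0.217 to 0.115 for XLOC_021325, and in FPKM from -0.218 to 0.458 for XLOC_021325 and from -0.33 to 0.072 for XLOC_023336. XLOC_004128 was at -0.016 with a minimum of 50 counts and -0.004 without both libraries numbered 4, where XLOC_023336 was at 0.166 in FPKM. No p was computed for the share. Depth limited precision: 29 of 36 tested members had under 50 counts per library. The replicate block also added XLOC_007701 in FPKM, and changed no other call named in the report.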
